A study of Mus musculus with 6 samples.

Results

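The subject is a group of 5 rows among the 34144 gene rows of 6 mouse testis libraries: Rmrp, Ccnb1ip1, Lars2, Malat1 and Neat1. They were chosen by symbol because their levels in these same libraries had stood out, so their levels are given as a description and are not evidence of anything about them. In the transcript tables they are made of 20 transcripts, of which 11 passed the filter on low counts. The libraries are of total RNA from testes freed of their capsule, from C57Bl/6J mice aged 3 months, with 3 wild-type mice (WT) and 3 homozygous for the Nsun7-/- allele. Each library is 1 mouse, numbered 1 to 3 within its genotype. Ribosomal and globin RNA had been depleted with Ribo-Zero Plus. No selection for poly(A) tails is described. Nsun7 is an RNA-binding protein of the NOL1/NOP2/SUN family that the study links to the sperm tail.

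Rmrp is the RNA of RNase MRP, a ribonucleoprotein of the nucleolus that takes part in cutting precursor ribosomal RNA. Its relative RNase P, whose RNA is made from the gene Rpph1, removes the leader of precursor transfer RNAs. Malat1 and Neat1 are neighbouring nuclear long noncoding RNAs: Malat1 gathers in nuclear speckles, and Neat1 is the scaffold of paraspeckles. The other members are protein-coding by name. Ccnb1ip1 (also called Hei10) encodes a ring-finger protein needed for crossovers in meiosis, and Lars2 encodes the leucyl-tRNA synthetase of mitochondria.

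The quantification listed a single transcript of Rmrp, Rmrp-202, of 281 bases, so all Rmrp counts lie on it. Rmrp-202 holds the 271-base ribozyme model Rmrp-201 with 5 more bases at each end. Rmrp-201 was not found among the quantified transcripts. The sequence is shown whole because this short RNA was the largest row of every library. It is read 5′ to 3′ in DNA letters from GENCODE M21, on the minus strand of GRCm38 at chr4:43492783-43493063. Capitals mark 124 bases that Ccdc107-206, a transcript of the neighbouring gene, carries on the opposite strand.
Rmrp-202: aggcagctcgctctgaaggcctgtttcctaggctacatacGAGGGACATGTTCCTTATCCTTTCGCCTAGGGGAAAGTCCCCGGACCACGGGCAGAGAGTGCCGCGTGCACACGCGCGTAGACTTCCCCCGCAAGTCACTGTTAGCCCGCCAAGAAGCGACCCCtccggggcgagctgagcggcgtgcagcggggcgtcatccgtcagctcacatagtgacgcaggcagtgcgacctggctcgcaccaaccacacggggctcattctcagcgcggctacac

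Without strand, reads of the capital stretch cannot be told apart between the genes, and whether the kit or the counting kept strand is not given in the sources used here. Ccdc107-206 held between 14.2 and 45.4 estimated counts per library, against 281300 or more for Rmrp-202. At 95% identity over 50 bases or more, Ccdc107 was the 1 other gene with a match to Rmrp-202 among the annotated transcripts.

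The Ccnb1ip1 row rests on a short transcript that shares its beginning with the RNase P RNA. In GENCODE M21 the first exon of Ccnb1ip1-202, annotated as untranslated, is 233 bases long and is identical, on the same strand, to bases 36 to 268 of the 319-base Rpph1. Rpph1 lies at chr14:50807449-50807767 on the minus strand of GRCm38, and Ccnb1ip1-202 spans chr14:50793805-50807732 on the same strand. The 2 ends of that shared stretch are printed, with the bases found in both RNAs in capitals, to show where the transcripts part. Ahead of it Rpph1 has 35 bases of its own, and behind it 51, while Ccnb1ip1-202 goes on into its second exon.
Rpph1 bases 1 to 65: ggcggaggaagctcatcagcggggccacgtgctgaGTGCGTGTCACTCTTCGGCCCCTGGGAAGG
Ccnb1ip1-202 bases 1 to 30: GTGCGTGTCACTCTTCGGCCCCTGGGAAGG
Rpph1 bases 254 to 319: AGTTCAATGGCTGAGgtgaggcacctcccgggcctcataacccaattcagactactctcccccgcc
Ccnb1ip1-202 bases 219 to 248: AGTTCAATGGCTGAGaaatgaaggatgaaa

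Lars2 carries a shorter resemblance. Bases 3278 to 3349 of the full-length Lars2-201 match bases 179 to 250 of the noncoding transcript Gm15564-202 at 98.6% identity over 72 bases, and the same stretch is at bases 3138 to 3209 of Lars2-209. Its first 30 bases, which both RNAs hold without a difference, are printed from Gm15564-202, whose gene lies at chr16:35966753-35983230 on the minus strand of GRCm38. That model has 402 bases, and the deposited tables give 420 for the transcript of this name.
Gm15564-202 bases 179 to 208: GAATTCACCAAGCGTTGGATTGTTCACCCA

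The long unspliced form of Malat1 was given the smaller part of its TPM by the quantification model. Most went to a spliced transcript of 656 bases, Malat1-204. Its junction is printed, with the end of the 564-base first exon in capitals and the start of the 92-base second exon in lower case. An intron of 603 bases separates them on the minus strand of GRCm38, within chr19:5795694-5796952.
Malat1-204 bases 545 to 584: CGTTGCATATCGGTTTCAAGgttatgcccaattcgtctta

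The members take very unequal parts of a library. Depth ran from 23480448 to 28558865 estimated counts per library. Rmrp held 4.85%, 2.48% and 1.55% of the estimated counts in WT mice 1, 2 and 3, and 1.76%, 1.21% and 0.985% in Nsun7-/- mice 1, 2 and 3. Ccnb1ip1 held 1.2%, 0.711% and 0.437% in the WT mice and 0.524%, 0.317% and 0.219% in the Nsun7-/- mice, in the same order. Rmrp was the largest row in 6 of 6 libraries. Ccnb1ip1 ranked between 2 and 14, and on the mean over libraries it was the row after Rmrp, ahead of the histone gene H2bc1 at 0.547%. The rest of the 10 largest rows were Ubb, H2ax, H1f6, H3f4, Prm2, Dnah8 and Clu, which include ubiquitin, histone and protamine genes. Malat1 ranked between 18 and 63, Lars2 between 4 and 596 and Neat1 between 230 and 623. In all, 402 rows held at least the mean share of Neat1, the smallest of the 5 at 0.0351%.

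**Figure D1:**
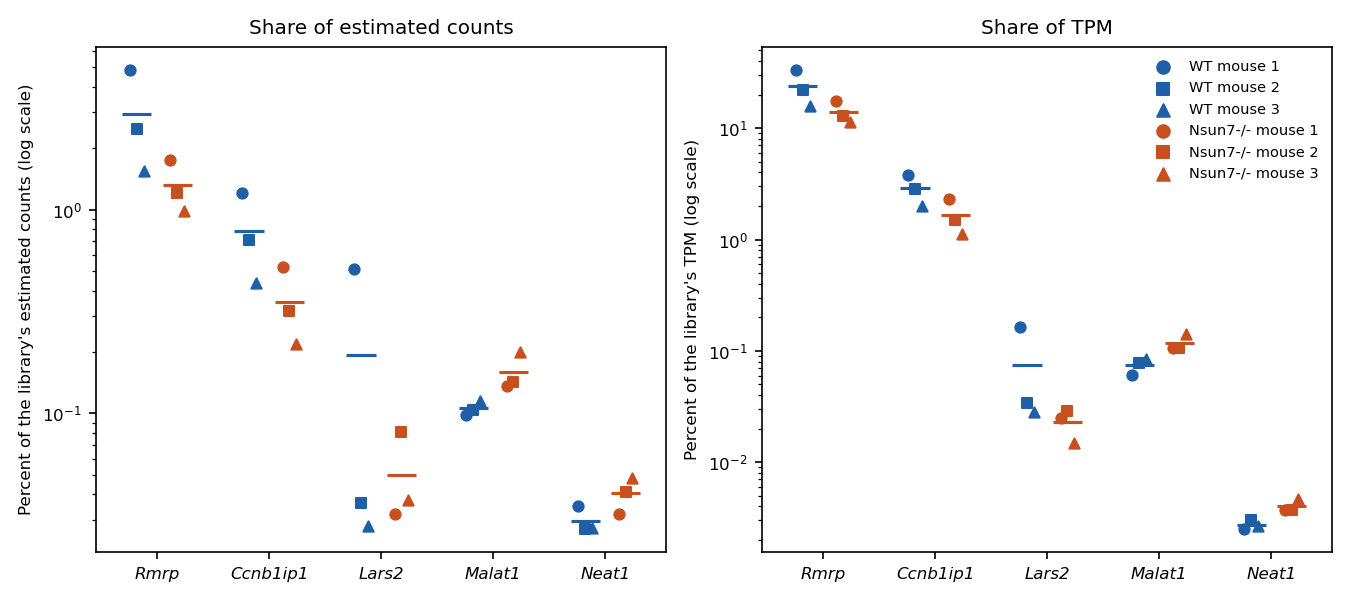
Share of each library taken by each of the 5 rows, on a log axis in percent, for estimated counts on the left and TPM on the right. Each point is 1 mouse, horizontal bars are genotype means, and Rmrp spans 0.985% to 4.85% of counts but 11.4% to 33.3% of TPM.

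Per unit of length the order is wider. TPM divides a transcript's counts by its effective length and scales each library to the same total. Levels of different genes can then be set side by side, as far as effective lengths and the assignment of reads to transcripts hold. The effective length was 120.1 to 135.5 bases for Rmrp-202 and 269.7 to 292.1 bases for Ccnb1ip1-202. Counts of Ccnb1ip1-202 were not split from those of the RNase P RNA. Rmrp stood between 113533 and 333406 TPM, and Ccnb1ip1 between 11241 and 38313 TPM. Those ranges are apart from each other and from all the lower members. Malat1 stood between 605 and 1409 TPM, Lars2 between 148 and 1640 TPM, and Neat1 between 24.9 and 46.8 TPM. Malat1 and Lars2 overlap, so their order is not settled: Lars2 was above Malat1 in WT mouse 1 and below it in the other 5 libraries. Neat1 was the lowest in 6 of 6 libraries.

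In the main edgeR fit, which did not pair the mice, the comparison of the genotypes gave no call for any member. A fit that blocks on the mouse number is given in the last paragraph. With edgeR's quasi-likelihood test across 21002 genes and Benjamini-Hochberg adjustment, 0 of the 5 members passed an adjusted p of 0.05, where 0.567% of all tested genes did (119 genes, 49 higher and 70 lower in Nsun7-/-). At an unadjusted p under 0.05 there were 2 of the 5, Malat1 and Neat1, where 8.39% of all tested genes were (1763 genes), and DESeq2 called 1, Malat1, among 213 genes. The genotypes did not overlap in normalised counts for 1 of the 5, against 14.3% of all tested genes. The median log2 fold change over all tested genes was 0.01. The targeted gene itself fell from 36.5 ± 0.762 to 20.3 ± 4.18 CPM (counts scaled to a common library size, with TMM factors; SD, n = 3 and 3), a log2 fold change of -0.84 ± 0.15 (SE) with an edgeR adjusted p of 0.016. Nothing in the labels says whether the allele removes its transcript.

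Rmrp, the catalytic RNA, spread widely within the WT group. It measured 51510, 25090 and 15400 CPM in WT mice 1, 2 and 3, and 17790, 12130 and 9091 CPM in Nsun7-/- mice 1, 2 and 3. WT mouse 1 stood far above the others, and Nsun7-/- mouse 1 was above WT mouse 3, so the groups overlap. In each genotype the values fell from mouse 1 to mouse 3, and each Nsun7-/- mouse was below the WT mouse of its number. Nothing in the labels pairs the mice by number. The log2 fold change was -1.24 ± 0.51 (SE) with an edgeR adjusted p of 0.598, and an exact two-sided permutation test over the 6 mice gave p = 0.2, where 0.1 is the smallest that 3 against 3 allows. Without WT mouse 1 the log2 fold change was -0.64, and with Nsun7-/- mouse 3 also left out it was -0.44, neither past the threshold.

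The library with the most Rmrp had the shortest fragments. The mean fragment length estimated from the effective lengths was 154.2, 167.7 and 175.1 bases in WT mice 1, 2 and 3, and 175.7, 178.5 and 175.5 bases in Nsun7-/- mice 1, 2 and 3. WT mouse 3 and Nsun7-/- mice 1 and 3 had nearly the same fragment length, with 15400, 17790 and 9091 CPM of Rmrp. Among the counts outside the 5 members, transcripts of up to 300 bases took 0.197% in WT mouse 1 and 0.114% in Nsun7-/- mouse 3, and those over 5000 bases took 16.8% and 20.2% in the same libraries. The part of fragment length in the Rmrp values was not tested.

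The proteins that work with the Rmrp and RNase P RNAs did not pass the test. All 11 proteins of a list for RNase MRP and RNase P were measured, 0 were called, and their median log2 fold change was -0.003, beside 0.01 over all genes. Rpp25l, a relative of the subunit Rpp25 and the most abundant of the list, measured 25.4 ± 2.13 CPM in WT and 22.0 ± 4.18 in Nsun7-/- (SD, n = 3). Pop4 measured 22.5 ± 1.78 and 23.8 ± 1.85 CPM. The smallest p belonged to Rpp21, at 23.1 ± 3.75 against 17.5 ± 2.17 CPM and a log2 fold change of -0.40 ± 0.15 (SE), with an edgeR adjusted p of 0.501. At an unadjusted p under 0.05 there was 1 of the 11, beside 8.39% of all tested genes. Among 13 other small structured RNAs that were listed, Terc, the telomerase RNA, was the 1 with a row, at 47.1 ± 6.38 and 42.4 ± 9.23 CPM. None of 8 listed symbols for ribosomal RNA sequence had a gene row here, so such sequence could not be followed by its own row. Whether reads of ribosomal RNA left after depletion fell in other rows, Lars2 among them, was not tested.

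The Ccnb1ip1 row followed Rmrp from library to library. It measured 12770, 7191 and 4351 CPM in WT mice 1, 2 and 3, and 5297, 3174 and 2024 CPM in Nsun7-/- mice 1, 2 and 3. As with Rmrp, WT mouse 1 was the highest, Nsun7-/- mouse 3 the lowest, and the groups overlap. Here too the values fell from mouse 1 to mouse 3 in each genotype. The log2 fold change was -1.21 ± 0.55 (SE), with an edgeR adjusted p of 0.636 and an exact two-sided permutation p of 0.2. Without WT mouse 1 it was -0.73, and with Nsun7-/- mouse 3 also left out it was -0.45, neither past the threshold. Across the 6 libraries the log2 CPM of the pair had a Pearson r of 0.986, a description of 6 points that share library preparation and depth.

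Nearly all of these counts are the short transcript. Ccnb1ip1-202, of 444 bases, held 282000, 185500 and 112900 estimated counts in WT mice 1, 2 and 3, and 131000, 84550 and 62370 in Nsun7-/- mice 1, 2 and 3. That was between 99.57% and 99.95% of the row. Both transcripts of Ccnb1ip1 are annotated as protein-coding in GENCODE M21. The longer of them, Ccnb1ip1-201 of 1509 bases, is the one called the coding transcript here. It held 144, 196 and 159 counts in the WT mice and 189, 177 and 268 in the Nsun7-/- mice. On the coding transcript the genotypes overlap, and the log2 fold change was 0.17 ± 0.18 (SE) with an edgeR adjusted p of 0.932. The row and the coding transcript therefore carry opposite signs, and neither passed the test. As CPM without TMM factors the coding transcript ran from 6.13 to 9.38. The short transcript had 1958 times its counts in WT mouse 1 and 232.7 times in Nsun7-/- mouse 3.

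The ratio of the short transcript to Rmrp moved far less than either RNA. Ccnb1ip1-202 counts were 24.8%, 28.6% and 28.2% of Rmrp counts in WT mice 1, 2 and 3, and 29.7%, 26.1% and 22.2% in Nsun7-/- mice 1, 2 and 3. Its highest value was 1.34 times its lowest. The means were 27.2 ± 2.11% and 26.01 ± 3.78% (SD, n = 3 and 3), with an exact two-sided permutation p of 0.7. Rpph1 itself is not measured as a row here, and how many of these counts come from the RNase P RNA and how many from Ccnb1ip1 messenger RNA was not tested.

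**Figure D2:**
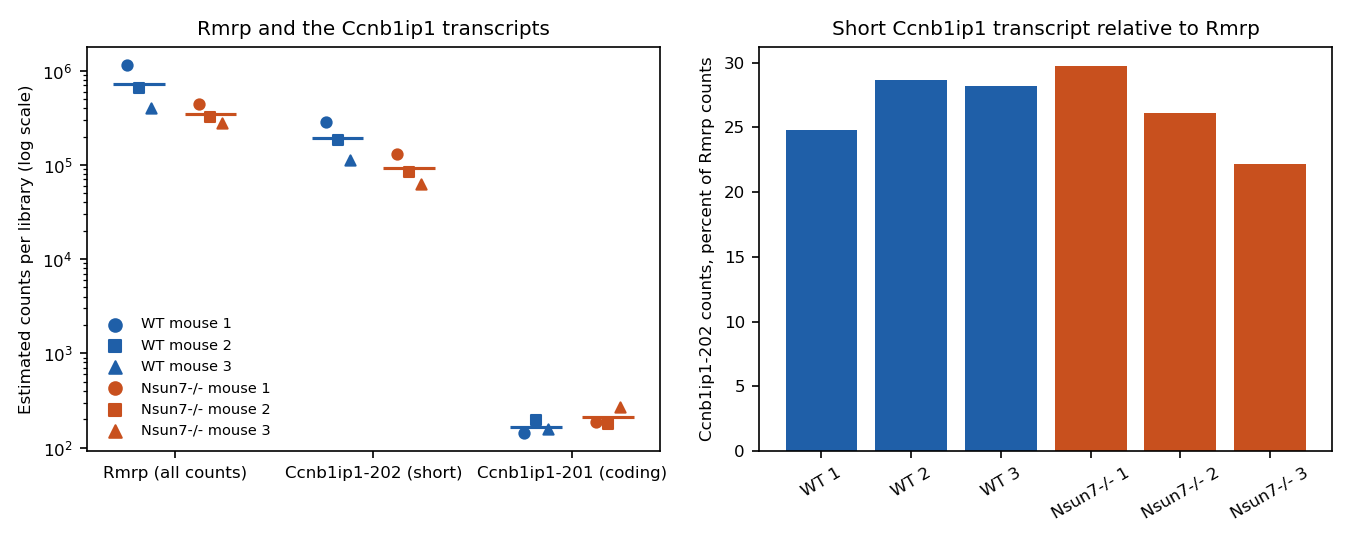
Left, estimated counts per library on a log axis for Rmrp-202, Ccnb1ip1-202 and Ccnb1ip1-201, with 1 point per mouse and a bar at each genotype mean. Right, Ccnb1ip1-202 counts as a percent of Rmrp counts in each library, which stay between 22.2% and 29.7%.

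The partners of Ccnb1ip1 in crossing over were listed beside it. Of 14 crossover factors 13 were tested and 1 rose: Hfm1, a meiotic DNA helicase. It measured 9.77, 11.2 and 8.97 CPM in WT mice 1, 2 and 3, and 18.1, 16.4 and 18.8 CPM in Nsun7-/- mice 1, 2 and 3. All 3 Nsun7-/- mice were above all 3 WT mice, with a log2 fold change of 0.83 ± 0.14 (SE) and an edgeR adjusted p of 0.0149. The other 12 did not pass, and the median over the 13 was -0.09. The call was 1 of 13, beside 0.567% of all tested genes. At an unadjusted p under 0.05 by edgeR there were 2 of the 13, beside 8.39% of all tested genes. The genotypes did not overlap for 3 of the 13, beside 14.3%. The most abundant were Cdk2 (163.6 ± 7.64 and 162.1 ± 22.9 CPM), Prr19 (100.2 ± 4.80 and 91.1 ± 13.7 CPM) and Cntd1 (81.7 ± 5.86 and 76.9 ± 2.09 CPM), in WT and Nsun7-/- in turn.

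Lars2 was set by a few libraries. It measured 5451, 368.7 and 277.5 CPM in WT mice 1, 2 and 3, and 323.1, 807.9 and 345.7 CPM in Nsun7-/- mice 1, 2 and 3. WT mouse 1 was the highest by far, Nsun7-/- mouse 2 was next, and the other 4 lay close together. The log2 fold change was -2.05 ± 1.46 (SE), with an edgeR adjusted p of 0.715 and an exact two-sided permutation p of 0.8. Without WT mouse 1 the sign turned, to 0.60, so no direction can be given.

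The high counts of WT mouse 1 and Nsun7-/- mouse 2 lay mostly on 1 transcript, with 93.1% and 92.3% of the row. Lars2-209, annotated as a target of nonsense-mediated decay, held 112100, 2976 and 2287 estimated counts in WT mice 1, 2 and 3, and 4023, 19910 and 8801 in Nsun7-/- mice 1, 2 and 3. The coding Lars2-201 held 1029, 1755 and 1480 counts in the WT mice and 1320, 1642 and 1831 in the Nsun7-/- mice. The coding transcript was thus at its lowest in the library where Lars2-209 was at its highest. Its log2 fold change was 0.02 ± 0.16 (SE), with an edgeR adjusted p of 0.994, and as CPM without TMM factors it ranged from 43.8 to 67.2.

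A further Lars2 transcript is a retained intron of 889 bases, Lars2-205. It held 7299, 4759 and 3423 counts in WT mice 1, 2 and 3, and 2638, 0 and 26.4 in Nsun7-/- mice 1, 2 and 3. In WT mice 2 and 3 it was the largest part of Lars2 counts, at 50% and 47.5%. Its part of Lars2 TPM was 83.3% and 82.0% in those mice and 71.1% in Nsun7-/- mouse 1. The WT mice were all above the Nsun7-/- mice, of which mice 2 and 3 had almost none. In those mice Lars2-209 held 92.3% and 82.3% of Lars2 counts. Reads that fall in a part the Lars2 transcripts share are divided by the quantification model, so the counts of each are estimates. The share of all tested transcripts without overlap between genotypes was not counted. For Lars2-205 the edgeR adjusted p was 0.932, at a log2 fold change of -2.58 ± 1.87 (SE). Without Nsun7-/- mouse 1 it was -8.95, with an edgeR adjusted p of 0.286. Gm15564-202, the RNA that shares 72 bases with Lars2-209, held 620.4, 96.8 and 82.1 counts in the WT mice and 109.7, 516.7 and 262.3 in the Nsun7-/- mice. Its libraries fall in the same order as those of Lars2-209, with WT mouse 1 first and Nsun7-/- mouse 2 next. Whether reads of 1 sequence feed both was not tested.

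The other mitochondrial aminoacyl-tRNA synthetases, which load amino acids onto the transfer RNAs of mitochondria, showed no call. All 16 listed were tested by edgeR, 0 were called, 0 had an unadjusted p under 0.05, and the median log2 fold change was -0.10. Fars2, for phenylalanine, measured 114.1 ± 1.57 CPM in WT and 100.8 ± 19.3 in Nsun7-/-. Aars2, for alanine, measured 80.4 ± 3.87 and 78.3 ± 9.92 CPM. Iars2, for isoleucine, had the smallest p, with a log2 fold change of 0.19 ± 0.11 (SE) and an adjusted p of 0.65.

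Malat1 was the member whose genotypes stood apart in CPM. It measured 1049, 1047 and 1148 CPM in WT mice 1, 2 and 3, and 1368, 1428 and 1843 CPM in Nsun7-/- mice 1, 2 and 3. Every Nsun7-/- mouse was above every WT mouse, with means of 1081 ± 57.8 and 1547 ± 258.7 CPM (SD, n = 3 and 3). The log2 fold change was 0.52 ± 0.14 (SE), with an edgeR adjusted p of 0.217 and an exact two-sided permutation p of 0.1, the smallest possible. It did not pass with edgeR, and with DESeq2 it did, at 0.51 and an adjusted p of 0.0264. Over all the alternatives its adjusted p ran from 0.0264 to 0.797 and its log2 fold change from 0.35 to 0.66.

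Of the Malat1 transcripts the long form held most of the counts. Malat1-201, of 6988 bases, held 16740, 19610 and 23050 estimated counts in WT mice 1, 2 and 3, and 24990, 29780 and 46720 in Nsun7-/- mice 1, 2 and 3. The spliced Malat1-204 held 6434, 7435 and 6776 in the WT mice and 8893, 8347 and 9350 in the Nsun7-/- mice. Both were higher in each Nsun7-/- mouse than in any WT mouse before depth is taken into account, with log2 fold changes after TMM scaling of 0.59 ± 0.17 and 0.21 ± 0.12 (SE), and edgeR adjusted p of 0.898 and 0.932. The short transcript had between 16.4% and 27.8% of the counts of Malat1 but between 67.4% and 84.1% of its TPM, since TPM divides by length. Reads that fall in a part the forms share are divided by the quantification model, so these shares are estimates. Malat1-202, of 556 bases, held 972.4 counts in Nsun7-/- mouse 3 and at most 5.26 elsewhere.

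Neat1, next to Malat1 on the chromosome, measured 370.8, 272.1 and 272.7 CPM in WT mice 1, 2 and 3, and 322.2, 412.6 and 446.2 CPM in Nsun7-/- mice 1, 2 and 3. WT mouse 1 was above Nsun7-/- mouse 1, so the groups overlap in CPM. In TPM they did not, at 24.9, 30.4 and 26.6 in the WT mice and 37.2, 37.6 and 46.8 in the Nsun7-/- mice, with an exact two-sided permutation p of 0.1, the smallest possible. On the same TPM scale 88.8% of the other tested genes were also higher in Nsun7-/-, and the share without overlap in TPM was not counted. By edgeR on counts the log2 fold change of Neat1 was 0.37 ± 0.16 (SE), with an edgeR adjusted p of 0.567 and an exact two-sided permutation p of 0.2. Malat1 counts were between 2.83 and 4.25 times Neat1 counts, with the lowest ratio in WT mouse 1. Over the 6 libraries the log2 CPM of Malat1 and Neat1 had a Pearson r of 0.73, and Malat1 and Rmrp one of -0.83, again as a description of 6 points of shared depth and scaling.

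The long form of Neat1, which builds paraspeckles, took most of its counts. Neat1-201, of 21163 bases, held 7697, 6151 and 6478 estimated counts in WT mice 1, 2 and 3, and 7134, 10560 and 13000 in Nsun7-/- mice 1, 2 and 3. That was between 87.5% and 95.9% of the counts of the gene. The 3004-base Neat1-202 held 390.1, 742.4 and 571.8 counts in the WT mice and 670.9, 312.3 and 743.4 in the Nsun7-/- mice, with no separation of the genotypes. Per length the short form reached between 0.22 and 0.893 of the long form, lowest in Nsun7-/- mouse 2 and highest in WT mouse 2. Reads that fall in the part the forms share are divided by the quantification model, so these ratios are estimates.

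**Figure D3:**
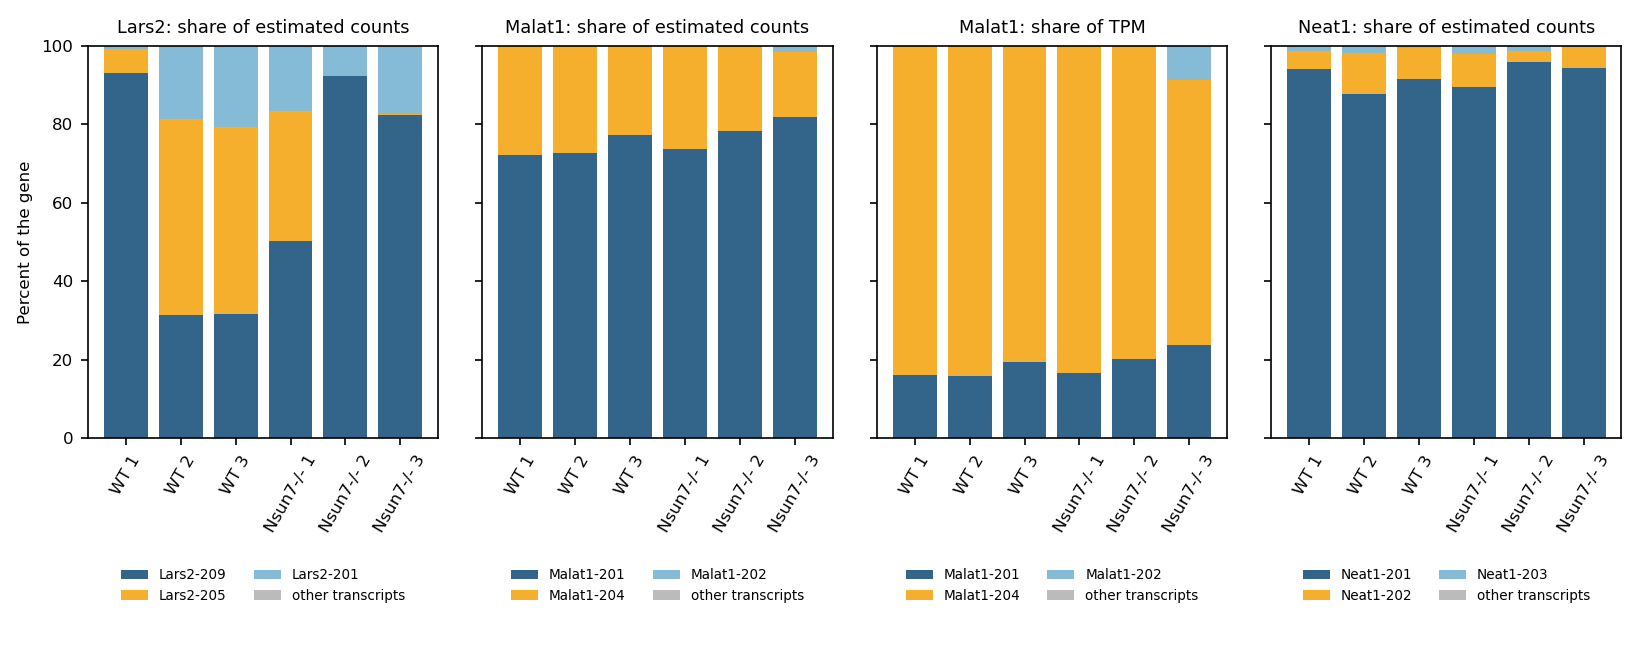
Percent of a gene given to each of its transcripts in each library: Lars2, Malat1 and Neat1 by estimated counts, and Malat1 also by TPM. Lars2-209 goes from 31.3% of Lars2 counts in WT mouse 2 to 93.1% in WT mouse 1, and Malat1-204 is the smaller part of Malat1 counts but the larger part of its TPM.

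Over all transcripts the test was coarse. Of 58773 transcripts tested by edgeR 15 passed (0.0255%), and 0 of the 11 member transcripts tested did. By edgeR's unadjusted p under 0.05 there were 3, namely Rmrp-202, Ccnb1ip1-202 and Malat1-201, at 0.0393, 0.0474 and 0.0108. Of all tested transcripts 4.81% were under it (2827 transcripts). The 9 member transcripts that were not tested include Malat1-203, with 0 counts in every library, and Malat1-202.

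Proteins of the bodies that hold Malat1 and Neat1 did not pass either. All 14 listed paraspeckle proteins were tested by edgeR, with 0 called, 0 at an unadjusted p under 0.05 and a median log2 fold change of -0.04. Smarca4, a chromatin remodeller, measured 423.4 ± 27.1 and 408.4 ± 32.8 CPM in WT and Nsun7-/-. The RNA-binding proteins Ewsr1 and Hnrnpk had log2 fold changes of -0.04 and 0.02, and Matr3, with the smallest p, had 0.21 ± 0.12 (SE) and an adjusted p of 0.65. All 14 nuclear speckle proteins were likewise tested, with 0 called, 0 at an unadjusted p under 0.05 and a median of -0.01. Their most abundant members, the scaffold proteins Srrm2 and Son, had log2 fold changes of 0.02 and 0.07. The splicing factors Srsf2 and Srsf5 had -0.19 and 0.19.

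Among other long noncoding RNAs 1 fell. Of 22 listed 20 were tested, and Meg3, an imprinted RNA, measured 5.29, 3.06 and 4.73 CPM in WT mice 1, 2 and 3, and 2.18, 1.31 and 1.45 CPM in Nsun7-/- mice 1, 2 and 3. The groups do not overlap, and the log2 fold change was -1.41 ± 0.26 (SE) with an edgeR adjusted p of 0.0265. Snhg1, a host gene of small nucleolar RNAs, was more abundant and followed the library order of Rmrp in part, at 698.1, 239.8 and 181.2 CPM in the WT mice and 160.5, 92.2 and 59.95 CPM in the Nsun7-/- mice. It did not pass, with a log2 fold change of -1.84 ± 0.73 (SE) and an adjusted p of 0.612. Most of it was the 495-base Snhg1-213, with 15180 estimated counts in WT mouse 1 and 1565 in Nsun7-/- mouse 3. Norad and Tug1 had log2 fold changes of 0.19 and 0.15, adjusted p 0.665 and 0.697. At an unadjusted p under 0.05 there were 7 of the 20, beside 8.39% of all tested genes, and 9 of the 20 did not overlap between genotypes, beside 14.3%. The call was 1 of the 20, beside 0.567% of all tested genes, and the median over the 20 was -0.07.

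The genes whose log2 CPM followed each member most closely across the 6 libraries were looked up among 9981 named genes with a mean of at least 10 CPM. For Rmrp they were Blzf1, Atp5l and Rpl17, with Pearson r of 0.996, 0.996 and 0.993. For Ccnb1ip1 they were Snhg3, Rpl27a and Card10, with r of 0.999, 0.997 and 0.996. Lars2 was followed by Fbxo9, Top1mt and Gskip, with r of 0.99, 0.982 and 0.979. Malat1 was followed by Tmcc3, Lix1l and Gramd1b, with r of 0.998, 0.998 and 0.995, and Neat1 by Cenpu, Pptc7 and Rnf125, with r of 0.99, 0.985 and 0.982. With 6 libraries and this many candidates such values are a ranking alone. The size of the moves differed: Blzf1 ran from 58.3 to 315.1 CPM, while Fbxo9 stayed between 44.1 and 50.5 CPM although Lars2 ran from 277.5 to 5451.

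What Rmrp does to the TPM of all other genes can be computed. It took 33.3%, 22.2% and 15.7% of all TPM in WT mice 1, 2 and 3, and 17.5%, 12.9% and 11.4% in Nsun7-/- mice 1, 2 and 3. With Ccnb1ip1 and the other members added, the 5 rows took 37.4%, 25.2% and 17.8% in the WT mice and 19.9%, 14.6% and 12.6% in the Nsun7-/- mice. Because the total is fixed, leaving Rmrp out multiplies the TPM of every other row by a factor that depends on the library alone. This factor was 1.5 in WT mouse 1 and 1.13 in Nsun7-/- mouse 3, with the other 4 libraries between 1.15 and 1.29.

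The median TPM of the other 20997 tested genes was 5.75, 7.24 and 8.05 in WT mice 1, 2 and 3, and 7.79, 8.39 and 10.1 in Nsun7-/- mice 1, 2 and 3. On log2(TPM + 1) the median gene was 0.24 higher in Nsun7-/-, and 88.8% of the genes were higher. Without WT mouse 1 these were 0.13 and 77.8%. The library medians overlap between the genotypes, with an exact two-sided permutation p of 0.2. After rescaling without Rmrp the difference was 0.10, with 70.8% of genes higher, and without all 5 members it was 0.08, with 66.4% higher. By edgeR's TMM-scaled counts 52.5% of the same genes were higher. TMM factors are set so that most genes lie near no change, so this share cannot test for a general shift. In TPM, 7710 genes (36.7%) were higher in Nsun7-/- that were lower by scaled counts, and 94 the reverse. Without the 5 members the numbers were 3449 (16.4%) and 530.

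What remained after rescaling was largest in 1 library. Without the 5 members the median TPM was 9.19, 9.68 and 9.80 in WT mice 1, 2 and 3, and 9.73, 9.83 and 11.55 in Nsun7-/- mice 1, 2 and 3. The other 5 libraries lay between 9.19 and 9.83, with Nsun7-/- mouse 3 above them. Without Nsun7-/- mouse 3 the median gene differed by 0.02 on the log2 scale, with 56.2% of genes higher. When every transcript was given a single effective length in all libraries, which fixes the divisor and leaves the counts as they are, the difference in unrescaled TPM was 0.26 over 19619 genes. Rmrp then stood at 346300 TPM in WT mouse 1 and 111800 TPM in Nsun7-/- mouse 3.

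**Figure D4:**
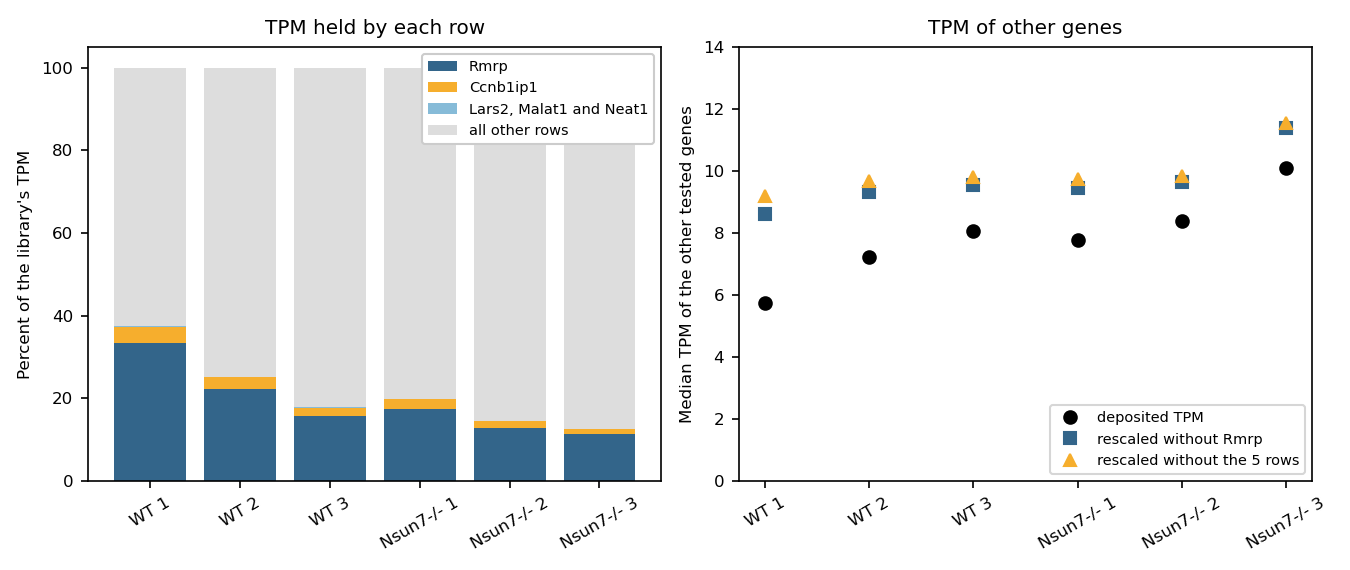
Left, percent of each library's TPM held by Rmrp, by Ccnb1ip1, by the other 3 members and by all other rows. Right, median TPM of the other 20997 tested genes in each library as deposited, which runs from 5.75 to 10.1, and after rescaling without Rmrp, or without the 5 rows; in the last, 5 libraries lie between 9.19 and 9.83.

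Nsun7 shows the effect on a single gene. Its deposited TPM was 10.3, 12.8 and 15.04 in WT mice 1, 2 and 3, and 7.26, 7.49 and 12.7 in Nsun7-/- mice 1, 2 and 3. In these values Nsun7-/- mouse 3 was above WT mouse 1, so the groups overlap, with the Nsun7-/- mean at 72.1% of the WT mean and an exact two-sided permutation p of 0.2. Rescaled without the 5 members it was 16.4, 17.1 and 18.3 TPM in the WT mice and 9.07, 8.77 and 14.5 TPM in the Nsun7-/- mice. The groups were then apart, at 62.5% of the WT mean, with an exact two-sided permutation p of 0.1, the smallest possible.

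Cell composition was read from marker lists, since fewer cells of a type and less RNA per cell cannot be told apart in bulk tissue. The label of testis is borne out by germ cell markers: those of elongating spermatids summed to between 5471 and 8572 CPM per library and those of pachytene spermatocytes to between 2769 and 3543 CPM. Markers of Leydig cells, which make testosterone, summed to 2834, 2251 and 1692 CPM in WT mice 1, 2 and 3, and to 4815, 2877 and 2145 CPM in Nsun7-/- mice 1, 2 and 3. All 7 Leydig markers were tested and 2 were called higher by edgeR, where 0.567% of all tested genes were called. No other marker list had a call. The median log2 fold change was 0.80 for the Leydig markers, all 7 above 0. It was -0.32 for 6 elongating spermatid markers, with 1 above 0 and 3 at an unadjusted p under 0.05. It was -0.25 for 6 peritubular markers, with 0 above 0 and 2 at an unadjusted p under 0.05. For 8 macrophage markers it was 0.24, with 8 above 0 and 0 at an unadjusted p under 0.05. For 6 spermatogonia markers it was -0.05, running from -0.46 to 0.52, with 3 above 0 and 3 at that p. Sertoli, pachytene spermatocyte, round spermatid and endothelial markers had medians of -0.05, -0.13, 0.04 and 0.09, with 1, 0, 1 and 0 at that p. Of all tested genes 8.39% were under it. The part of cell composition in the values of the 5 rows was not tested.

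**Figure D5:**
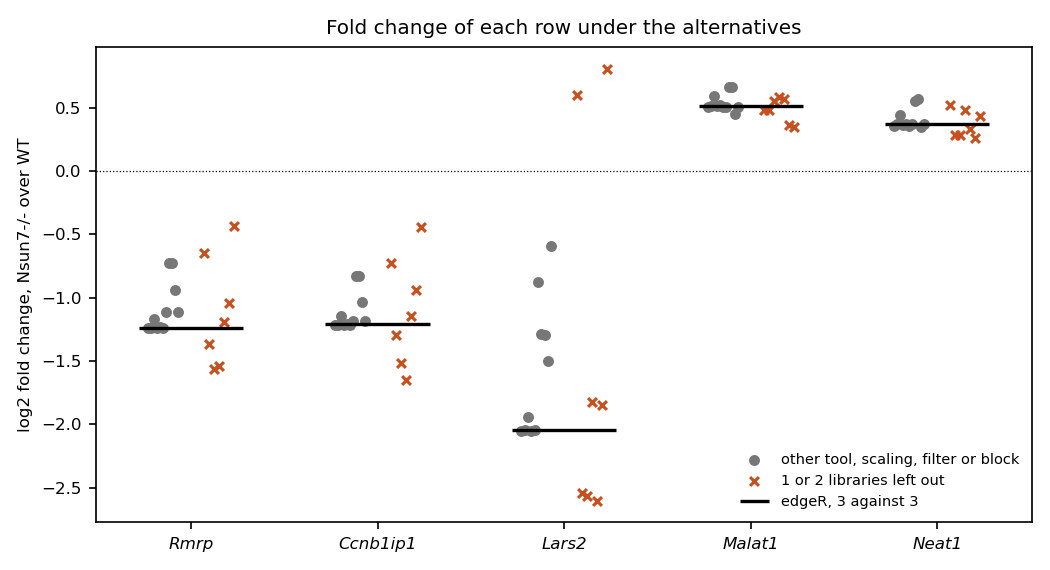
Log2 fold change of Nsun7-/- over WT for each of the 5 rows: the black line is edgeR with 3 against 3, grey circles are other tools, scalings, filters or the replicate block, and crosses leave out 1 or 2 libraries. Lars2 lies on both sides of 0, from -2.61 to 0.81, while Malat1 stays between 0.35 and 0.66.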

How the data were processed

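The submitters' processing notes name kallisto 0.50.1 and mm39, with release and strandedness not given in the sources used here. Deposited by the authors were estimated (expected) counts and TPM for 34144 gene symbols, the counts as whole numbers. They also deposited a transcript table per library with TPM, effective lengths and estimated counts, per the file headers. Gene counts and rounded transcript counts entered edgeR 4.0.16 (R 4.3.3): TMM scaling, filterByExpr by genotype (minimum count 10, total 15), the robust quasi-likelihood test and Benjamini-Hochberg adjustment over all features at 0.05. SE is the log2 fold change over the square root of F. CPM and transcript counts are given to 4 significant digits. DESeq2 1.42.0 and limma 3.58.1 gave alternatives. TPM was compared on log2(TPM + 1). Numbers of mice name libraries only, and leave-one-out fits pool the spread. p-values cover the spread between 3 mice a group.

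GENCODE M21 (GRCm38), a different build from the authors', gave transcript names and the printed sequences; 18 of the 20 member transcripts have the same length there, the exceptions being Malat1-201 and Neat1-201. Sequences were compared with blastn 2.17.0+. Columns of other samples numbered 0. The members and lists were chosen with earlier results of these data known. Besides the members, the text names the 3 genes of highest mean CPM, the smallest p and any call of each list, the 3 genes most like each member, and the 10 largest rows. The edgeR gene test was run on simulated counts without libraries that stand apart, so that check does not cover rows like Rmrp or Lars2. The transcript, permutation, DESeq2 and limma tests were not simulated.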

Additional observations from a re-analysis of the deposited data

How the results depend on the processing

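The signs of Rmrp, Ccnb1ip1, Malat1 and Neat1 held under every alternative run, and that of Lars2 did not. Leaving out 1 library gave Lars2 log2 fold changes from -2.61 to 0.60, and without both WT mouse 1 and Nsun7-/- mouse 3, a choice made after seeing the data, it was 0.81. DESeq2 gave Malat1 as 0.51 (adjusted p 0.0264), and gave no adjusted p for Lars2. The median TPM difference was from 0.13 to 0.32 with 1 library left out. The causes were not tested. Genes called numbered 119, and 180 with no filter on low counts, 213 with DESeq2, 61 on log2(TPM + 1), 68 on log2(TPM + 0.1), 41 on log2(TPM + 1) rescaled without the 5 members, and from 67 (without WT mouse 1) to 166 with 1 library left out. Transcripts called numbered 15, and 24 with no filter and from 0 to 6 with 1 library left out. For transcripts, Lars2-201 was -0.0026 with no filter and from -0.12 to 0.16 with 1 library left out, Lars2-205 from -8.95 to -1.997, Lars2-209 from -2.99 to 1.96, Neat1-202 from -0.39 to 0.15 and Neat1-203 from -0.085 to 0.69.

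The mouse numbers are shared between genotypes, but nothing in the labels pairs them, so they were not taken as pairs. The same-number correlations of deviations were 0.177, -0.005 and 0.199, and those between different numbers ran from -0.235 to 0.0565. WT mice 1 and 3 correlated best with their own number, and WT mouse 2 did not. With a replicate block 331 genes and 0 transcripts were called, Rmrp was -1.11 (edgeR adjusted p 0.000606), Ccnb1ip1 -1.18 (adjusted p 3.86e-05) Lars2-205 -5.89 and Lars2-209 0.62. With 3 mice a group, low counts limit the coding transcript of Ccnb1ip1, at 144 to 268, and Neat1-203, at 36.6 to 173.9.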
